A study of Cairina moschata with 9 samples.

Results

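Abdominal fat of Muscovy ducks (Cairina moschata) of 35 weeks of age was compared with that of birds of 12 weeks, by RNA sequencing of whole tissue. The comparison rests on 6 of the 9 libraries of the series, 3 from the older and 3 from the younger birds. It covers the 11453 of 14814 genes whose mean over these 6 libraries was at least 1 FPKM (fragments per kilobase of transcript and depth of mapped fragments, a level adjusted for length and depth). The mean nearest to that limit was 1.00 FPKM inside it and 0.999 FPKM outside it, and 215 of these genes averaged under 1 FPKM at 35 weeks and 228 at 12 weeks. The birds were of normal body weight and the labels name no treatment, so age is the only difference they give. Sex, breed line and laying state were not stated in the labels. All 35-week libraries carry lane code 4 and all 12-week libraries lane code 3, so sequencing lane and age cannot be told apart. The 3 libraries from birds of 66 weeks enter only as values set beside these.

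Abdominal fat is white adipose tissue and the main lipid store of the body cavity in ducks and chickens. In birds most fatty acids are made in the liver and reach the depot in lipoproteins, from which lipoprotein lipase releases them for storage as triglyceride in adipocytes. The depot grows by the addition of adipocytes and by their enlargement, and it also holds vessels, connective tissue and immune cells. In bulk tissue, fewer cells of a type and less RNA per cell cannot be told apart. The files give Ensembl-type identifiers with no gene names, so the tissue label could not be checked against adipocyte markers, and lists of lipid metabolism and cell type genes could not be matched. Genes are therefore described by their level and their values in each bird, 4 of them also by identifier.

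The libraries did not group cleanly by age. Most plainly, 1 bird of 12 weeks stood with the birds of 35 weeks. Over the genes compared, Pearson's correlation (r) of log2(FPKM + 1), computed over genes that are not independent replicates, was 0.913, 0.907 and 0.887 between the 35-week libraries. Between the 12-week libraries it was 0.907 for replicates 1 and 2, but 0.851 and 0.832 for replicate 3 with those 2. Replicate 3 of the 12-week birds had r of 0.857, 0.893 and 0.902 with 35-week replicates 1, 2 and 3. Whether it carries the right label was not tested. Its mean r was 0.884 with the 35-week libraries and 0.841 with its own age. No other library of the 6 had a higher mean r with the other age than with its own. The smallest margin among them was that of 12-week replicate 1, at 0.879 with its own age and 0.877 with the other. Among the 35-week libraries, replicate 1 was slightly nearer to 12-week replicate 1 (0.891) than to 35-week replicate 3 (0.887).

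**Figure D1:**
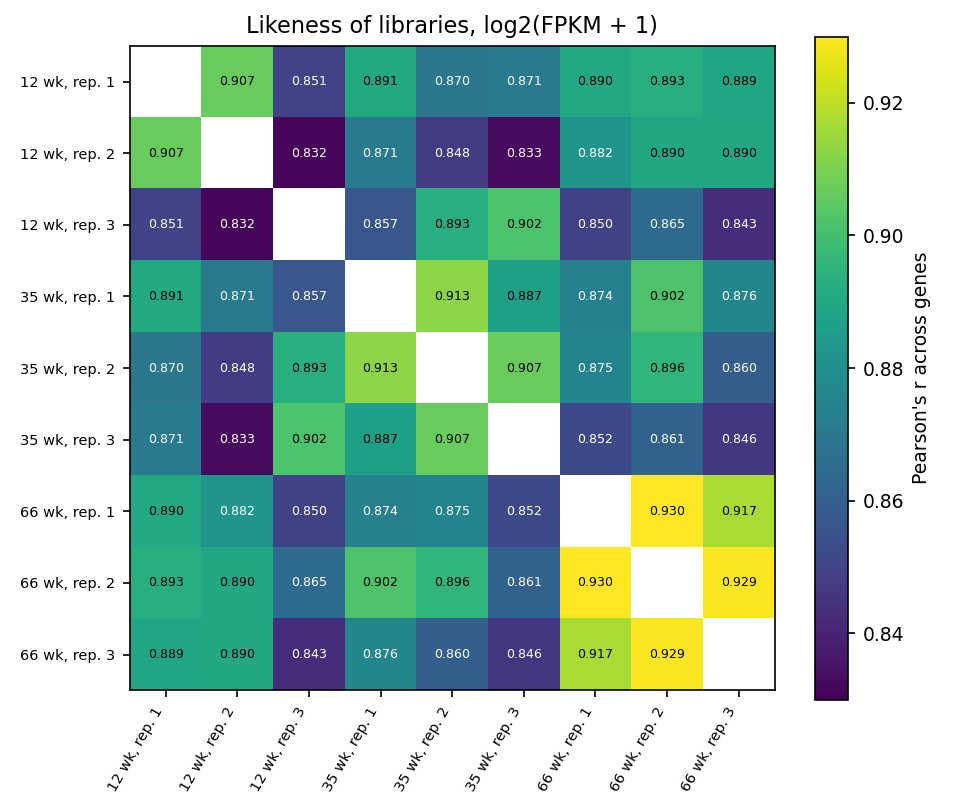
Pearson's correlation (r) between the 9 libraries over the log2(FPKM + 1) of 11453 genes, in colour and in figures. The row of 12-week replicate 3 is darker against its own age (0.851 and 0.832) than against 35-week replicates 2 and 3 (0.893 and 0.902).

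With all 6 libraries, few genes passed the test between the ages. At an adjusted p of 0.05 (limma on log2(FPKM + 1), Benjamini-Hochberg adjustment), 5 genes were higher at 35 weeks, 0.0437% of those tested, and 3 were lower, 0.0262%. Of these 8 genes, 4 were listed at 0 in all 3 libraries of 1 age, and the other 4 were above 0 in all 6. Without adjustment, 784 genes higher and 364 lower, of the 11453 tested, had a limma p under 0.05. A share of 0.05 of unchanged genes would also pass that limit, so these are not counts of changed genes. Without 12-week replicate 3 the calls were 18 higher, 0.157%, and 9 lower, 0.0786%, with 6 of the 8 among them.

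Among genes above 0 in all 6 libraries, the clearest difference between the ages was in ENSAPLG00000014341, which rose at 35 weeks. It had 490, 414 and 573 FPKM in the 35-week libraries, against 4.96, 2.16 and 7.24 FPKM in the 12-week libraries. Every older bird lay far above every younger one, the lowest 35-week value being 57.1 times the highest 12-week value. Its mean FPKM was 492 ± 79.8 in the older and 4.79 ± 2.55 in the younger birds (SD, n = 3 each), and the log2 fold change was 6.51 ± 0.37 (SE; limma, adjusted p 0.00651). Without 12-week replicate 3 the log2 fold change was 6.82 ± 0.32 (SE; limma, adjusted p 0.00589). The call was lost without 35-week replicate 1 (limma, adjusted p 0.053) or 3 (0.0536), within a range of 0.0014 to 0.0536 over all alternatives. In birds of 66 weeks the gene was at 4.63, 1.57 and 0.708 FPKM, in the range of the 12-week birds or below it.

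A second gene above 0 in every library rose at 35 weeks, at a much lower level. It stood at 11.4, 9.31 and 10.02 FPKM in the 35-week libraries, against 0.208, 0.0580 and 0.892 FPKM in the 12-week libraries. The ages were separated by a factor of 10.4 between their nearest birds, and the spread at 35 weeks was small. As 1 was added to each FPKM value, the log2 fold changes below understate this factor. The log2 fold change was 3.06 ± 0.27 (SE; limma, adjusted p 0.0489), and 3.31 ± 0.18 without 12-week replicate 3 (SE; limma, adjusted p 0.0126). This call was close to the threshold: it was lost in 11 of 19 alternatives, among them each single library left out other than 12-week replicate 3 (limma, adjusted p 0.00859 to 0.351 over all). Its values at 66 weeks were 0.799, 0.683 and 1.81 FPKM.

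ENSAPLG00000004615 fell at 35 weeks. It was at 0.413, 0.381 and 0.464 FPKM in the 35-week libraries, against 11.8, 25.6 and 15.1 FPKM in the 12-week libraries. All 3 older birds were below 1 FPKM, and the 3 younger ones were at least 25.5 times higher. The log2 fold changes below are of FPKM + 1, which understates this difference. With 0.1 added in place of 1, the log2 fold change was -5.01 in the 6 libraries. Its mean FPKM was 0.419 ± 0.0421 in the older and 17.5 ± 7.18 in the younger birds (SD, n = 3 each), and the log2 fold change was -3.64 ± 0.29 (SE; limma, adjusted p 0.0319). Without 12-week replicate 3 it was -3.70 ± 0.35 (SE; limma, adjusted p 0.0506, and 0.0267 among genes above 0 in all 6 libraries). The call was lost in 7 of 19 alternatives, among them the fit without 12-week replicate 3. It was also lost without any 1 of the 35-week libraries (limma, adjusted p 0.163 to 0.178). The rest were the fit of all genes compared with the 66-week libraries (limma, adjusted p 0.0664), a mean of at least 5 FPKM (0.104) and a block on replicate number (0.225). Over all alternatives the adjusted p from limma was 0.014 to 0.225. At 66 weeks the gene was at 2.40, 0.0730 and 0.185 FPKM.

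One more gene above 0 throughout fell at 35 weeks, with nearly equal values at 12 weeks. It had 0.815, 1.77 and 1.49 FPKM in the 35-week libraries, against 11.7, 13.6 and 13.3 FPKM in the 12-week libraries. The 12-week replicate 3 was here between the other 2 birds of its age. Here too the log2 fold changes are of FPKM + 1 and understate the difference in FPKM. The log2 fold change was -2.58 ± 0.21 (SE; limma, adjusted p 0.0319). It was -2.55 without 12-week replicate 3 (limma, adjusted p 0.0507, and 0.029 among genes above 0 in all 6 libraries). The call was lost in 12 of 19 alternatives, within 0.0216 to 0.204. At 66 weeks it was at 2.31, 0.257 and 0.483 FPKM.

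The other 4 called genes were present at 1 age and listed at 0 at the other, so no fold is given. A 0 of this kind may be an estimate that failed, and a high FPKM value can stand for few fragments on a short gene model. ENSAPLG00000000305 was at 366, 325 and 108 FPKM in the 35-week libraries and listed at 0 in all 12-week libraries (limma, adjusted p 0.00748). At 66 weeks it was at 424, 0 and 173 FPKM, so a 0 also occurred beside high values within 1 age. A gene at 67.4, 60.8 and 60.7 FPKM and one at 13.1, 11.3 and 11.2 FPKM in the 35-week libraries were likewise listed at 0 at 12 weeks (limma, adjusted p 7.79e-05 and 0.00441). Each was at 0 in 2 of the 66-week libraries, and the remaining library had 96.1 FPKM of the first gene or 10.8 FPKM of the second. ENSAPLG00000001561 was listed at 0 in each bird of 35 weeks, against 1305, 3630 and 1366 FPKM in those of 12 weeks. Its adjusted p from limma was 0.00122, and its values at 66 weeks were 3168, 0 and 0 FPKM. All 4 calls ended when the 66-week libraries shared the fit (limma, adjusted p 0.234 to 0.24). That of ENSAPLG00000000305 also ended without 12-week replicate 2 (limma, adjusted p 0.0799) and under the replicate block (0.143). The gene at 13.1, 11.3 and 11.2 FPKM lost its call in 4 of 17 alternatives, the others being a pseudocount of 0.01 (limma, adjusted p 0.0658), a mean of at least 5 FPKM (0.134) and the block (0.143).

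**Figure D2:**
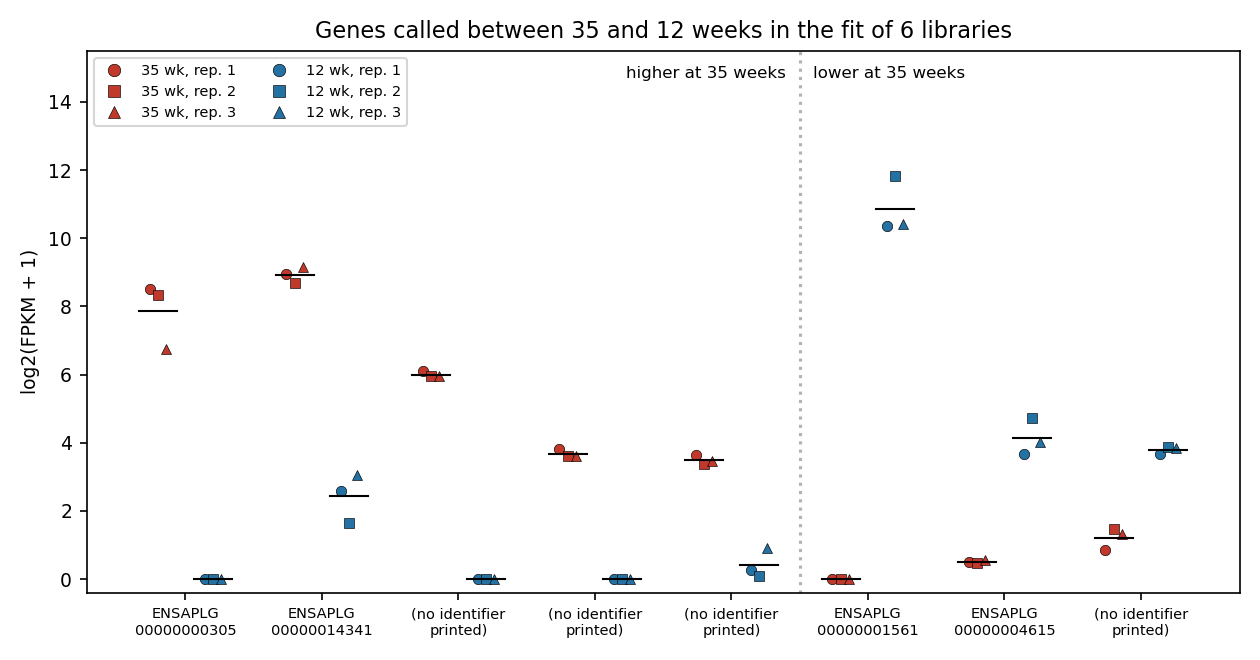
Level of the 8 called genes in each 35-week (red) and 12-week (blue) library as log2(FPKM + 1), with the mean of each age as a line. In the 4 genes above 0 in all libraries, such as ENSAPLG00000014341 (490, 414 and 573 against 4.96, 2.16 and 7.24 FPKM), 12-week replicate 3 stays with the birds of its age. These genes were called with that library among the younger birds, so its place in them largely follows from the choice.

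Values of 0 touched 513 of the genes compared. Listed at 0 in all 3 libraries of 35 weeks were 2 genes above 0 in every 12-week library, and 8 genes were at 0 in all 3 libraries of 12 weeks and above 0 in every 35-week library. Among the 10940 genes above 0 in all 6 libraries, limma called 2 genes higher, 0.0183%, and 2 lower, 0.0183%, at 35 weeks, the 4 described above. With the 66-week libraries in the same model over all genes compared, 2 were higher, 0.0175%, and 0 lower, 0%, which are the 2 higher genes above 0. At an unadjusted p under 0.05 that model gave 938 higher and 473 lower of the 11453 genes, again a limit that unchanged genes can pass.

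Separations of the ages that held in all 6 birds were mostly small. In 1147 genes, 10% of those compared, all 35-week libraries lay above all 12-week libraries, and in 761, 6.64%, all lay below. Quantile normalization turned that order round, to 7.93% above and 9.78% below. Where nothing differs, 3 against 3 libraries separate fully, in 1 direction or the other, with a probability of 0.1. A large part of these genes can therefore be separated without a change. Among genes above 0 in all 6, the nearest birds differed by more than 2-fold in 32 genes higher (0.293%) and 11 lower (0.101%) at 35 weeks. They differed by more than 3-fold in 10 (0.0914%) and 5 (0.0457%). These were chosen by their separation and are given as a description. After the 2 genes that rose, the next by separation was at 4.2, 5.92 and 4.72 FPKM in the 35-week libraries, against 0.494, 0.550 and 0.513 FPKM in the 12-week libraries. Its 12-week birds were nearly equal, and 12-week replicate 3 lay within them. The one after it was at 5.57, 4.63 and 3.46 FPKM at 35 weeks, against 0.745, 0.142 and 0.332 FPKM at 12 weeks. The tenth gene by separation was by far the most abundant of the 10, at 5179, 4234 and 4329 FPKM at 35 weeks, against 1410, 66.6 and 16.2 FPKM at 12 weeks. Its older birds were close together while its younger ones covered a wide range, and 12-week replicate 3 was the lowest of all 6. At 66 weeks it was at 34.9, 27.0 and 0 FPKM.

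Among genes lower at 35 weeks, the second by separation was at 0.111, 0.205 and 0.2 FPKM in the 35-week libraries, against 1.80, 7.07 and 3.38 FPKM in the 12-week libraries. Another was at 5.98, 5.57 and 5.09 FPKM at 35 weeks, against 74.4, 19.3 and 32.2 FPKM at 12 weeks. Here the older birds were nearly equal and the younger ones spread over a wide range. A further gene was at 8.55, 11.3 and 8.53 FPKM at 35 weeks, against 31.0, 67.5 and 34.4 FPKM at 12 weeks. In a gene at 1.32, 0.805 and 0.785 FPKM at 35 weeks, against 5.08, 4.08 and 5.03 FPKM at 12 weeks, both ages were even. None of these 7 genes passed the test with all 6 libraries (limma, adjusted p 0.105 to 0.412). Among genes above 0 and without 12-week replicate 3, 4 of the 7 passed, the first 2 of those higher and the last 2 of those lower (limma, adjusted p 0.0321, 0.0399, 0.0404 and 0.0445).

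Leaving out 12-week replicate 3 changed the picture. Without it, 2855 genes, 24.9%, lay above both remaining 12-week libraries in all 35-week libraries, and 2059, 18.0%, lay below, 42.9% together. Leaving out any other single library gave between 21.5% and 27.7% together, and 5 libraries separate more often than 6 by construction. Among the genes above 0 in all 6 libraries, limma then called 227 higher, 2.07%, and 122 lower, 1.12%, at 35 weeks. Leaving out any other single library gave at most 1 call among these genes. Over all 11453 genes compared, the counts were 18 and 9, beside 4 to 10 higher and 2 to 4 lower without any other single library. The genes above 0 are part of both fits, so the larger counts depended on which genes shared the fit. They do not place the contrast in 1 class of genes. In a model of all genes compared that held the 66-week libraries but not 12-week replicate 3, 316 genes passed as higher, 2.76%, and 144 as lower, 1.26%. The library was left out because it resembled the 35-week libraries, so its removal enlarges the difference by construction, and these counts are no independent evidence of a change with age.

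The 349 genes called without it also hung on the libraries that were left. When 35-week replicate 2 or 3 was left out as well, they became 0 higher and 0 lower (limma). With the replicate block, a fit with a term for each replicate number, they also became 0 and 0. That term leaves few residual degrees of freedom here, so the loss of calls with the block was largely to be foreseen. With any second library left out, those of 12 weeks included, the sign was kept in all 349. Leaving out 12-week replicate 1 or 2 leaves a single 12-week library, so only the sign is given there. It does not show that the calls are independent of those libraries. The genes were chosen on these same libraries, so the choice largely fixes the sign, which is no sign of stability. Without 35-week replicate 1 as the second library they became 378 higher and 308 lower, with 201 of the 227 and 106 of the 122 among them.

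**Figure D3:**
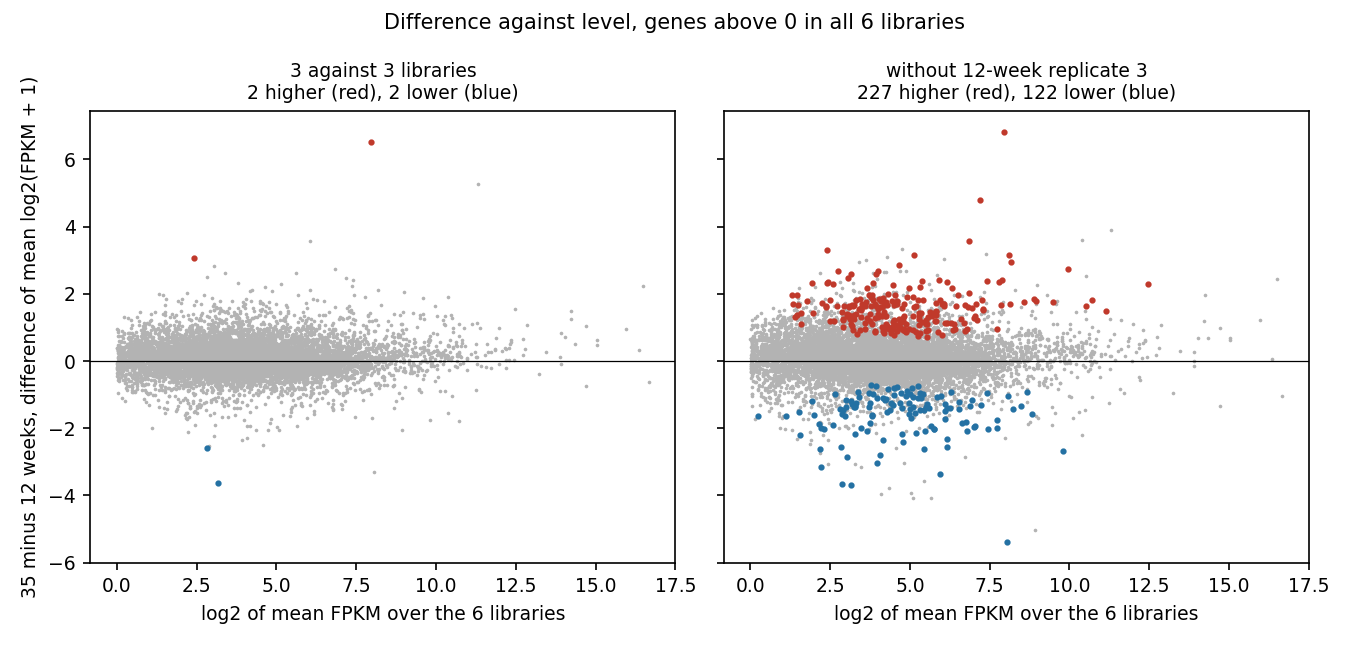
Difference of mean log2(FPKM + 1), 35 minus 12 weeks, against the log2 of the mean FPKM over the 6 libraries, for 10940 genes above 0 in all 6. With 3 libraries against 3 (left) 4 genes were called, and without 12-week replicate 3 (right) 227 higher (red) and 122 lower (blue), at low as well as high levels.

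These genes differed by moderate factors and were not confined to low levels. The 227 higher genes had a median log2 fold change of 1.47 without 12-week replicate 3, and 192 of them were beyond 1 and 32 beyond 2. With the replicate included, the median was 0.99 and 110 of the 227 had all 35-week libraries above all 12-week libraries. The 122 lower genes had a median of -1.42, with 103 beyond 1 and 27 beyond 2. With the replicate included, the median was -0.95 and 31 of the 122 did not overlap between the ages. Among all genes above 0, 2774 higher and 1980 lower did not overlap without the replicate, and 1097 and 750 with it. The called genes were chosen on the libraries without the replicate, so they are set beside the 2774 and 1980 genes already apart there. Against those, staying apart with the replicate included was not particular to the called genes. Of the 349, 2 and 2 passed with all 6 libraries, and among the others the lowest adjusted p from limma was 0.0891 for those higher and 0.141 for those lower. Their mean FPKM had a median of 22.9 in the higher genes and 26.9 in the lower ones, beside 17.8 in all genes above 0.

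In most of these genes 12-week replicate 3 lay nearer to the older birds than to the other younger ones, and in the first 3 examples it stayed below every older bird. One gene higher at 35 weeks was at 136, 217 and 218 FPKM in the 35-week libraries, against 19.7 and 10.8 FPKM in 12-week replicates 1 and 2. The 12-week replicate 3 was at 90.1 FPKM, and the 66-week libraries were at 11.3, 7.58 and 3.42 FPKM. A further gene was at 63.1, 61.8 and 41.1 FPKM at 35 weeks, against 4.84, 5.74 and 35.4 FPKM in the 3 birds of 12 weeks, the last being replicate 3. A more abundant one was at 499, 480 and 333 FPKM at 35 weeks, against 77.1, 39.8 and 317 FPKM at 12 weeks. In these last 2 genes, replicate 3 fell just short of the lowest 35-week bird.

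In other higher genes replicate 3 exceeded the older birds. One gene was at 32.3, 266 and 116 FPKM in the 35-week libraries, against 4.10, 1.57 and 453 FPKM in the 12-week libraries. Another was at 81.4, 262 and 209 FPKM at 35 weeks, against 22.2, 13.6 and 1060 FPKM at 12 weeks. In both, 35-week replicate 1 was the lowest of the older birds. A gene at 10.3, 12.2 and 11.9 FPKM at 35 weeks was at 0.954, 1.14 and 16.5 FPKM at 12 weeks. The 5 genes of the 1000 FPKM class that were called higher included one at 670, 1816 and 1408 FPKM at 35 weeks, against 154, 205 and 1758 FPKM at 12 weeks.

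The lower genes showed the mirror image. The largest fold change was in a gene at 38.9, 22.9 and 5.06 FPKM in the 35-week libraries, against 838, 681 and 8.80 FPKM in the 12-week libraries, again with replicate 3 as the low value. At 66 weeks it was at 704, 243 and 925 FPKM, like the other 2 birds of 12 weeks. A gene at 4.81, 3.44 and 3.71 FPKM at 35 weeks was at 49.6, 31.3 and 1.80 FPKM at 12 weeks. The most abundant of the 12 lower genes with the largest fold changes was at 312, 177 and 552 FPKM at 35 weeks, against 2191, 1829 and 292 FPKM at 12 weeks. Here replicate 3 lay between the older birds and the other younger birds were more than 3 times higher than any of them.

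The place of a library that was left out of the test was described on a scale from 0, the mean of the others of its age on the log2 scale, to 1, the mean of the other age. The 12-week replicate 3 had been set aside for its likeness to the older birds and had entered the filters on level and on zeros, so its place is a description of that likeness and no independent measure. For 12-week replicate 3 the median place over the 349 genes was 0.96, and 299 of them, 85.7%, were past the halfway point. It was 0.86 in the higher and 1.04 in the lower genes. Among the 227 higher genes, 60 of its values were within the range of the 35-week libraries, 57 above it and 110 below it, and 7 within the range of 12-week replicates 1 and 2. Among the 122 lower genes, 54 were within the 35-week range and 31 above it, and 37 lay below even the lowest 35-week value. The 4 genes called with all 6 libraries are among the 50 in which it stayed on the side of its own age. As it was part of the fit that called those 4, this largely follows from their choice.

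The same was done for each library in turn, with no call involved. It used the genes above 0 in all 6 libraries whose remaining libraries differed by more than 1 (log2) between the ages. Each library placed had thus also entered the filters on level and on zeros. Over 1094 such genes 12-week replicate 3 had a median place of 0.99, and 80.9% were past the halfway point. For the 35-week replicates 1, 2 and 3 the median was 0.44, 0.03 and 0.18, over 710, 483 and 533 genes. For 12-week replicates 1 and 2 it was 0.16 and 0.005, over 506 and 347 genes. Next to 12-week replicate 3, then, 35-week replicate 1 stood farthest from its own age, with 44.1% past halfway. When 12-week replicate 3 was left out throughout, the medians of 35-week replicates 1, 2 and 3 were 0.37, 0.007 and -0.03, and those of 12-week replicates 1 and 2 were 0.31 and 0.09.

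**Figure D4:**
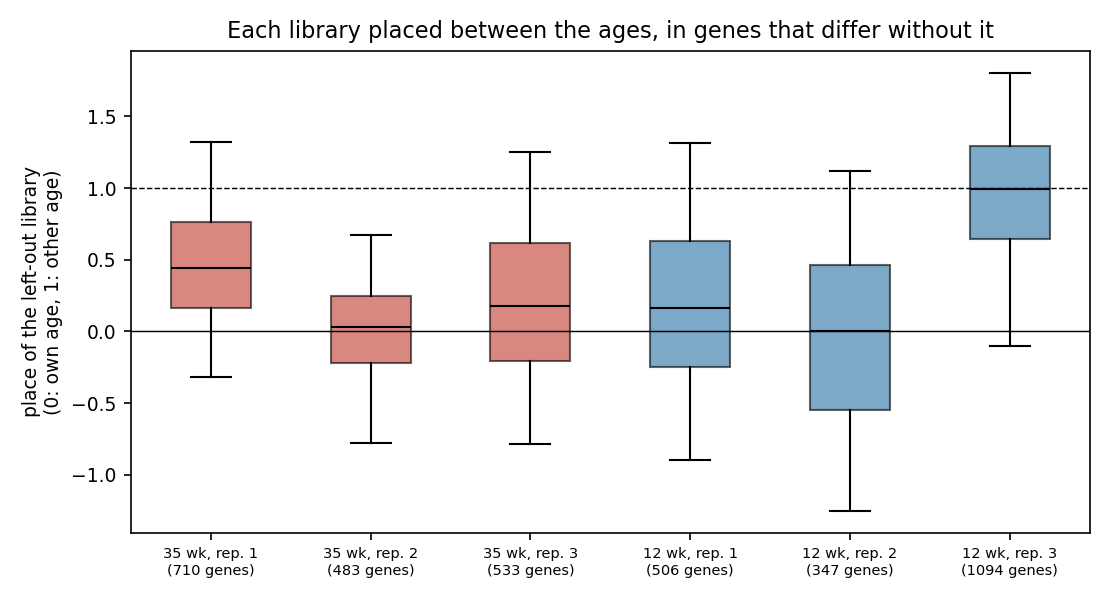
Place of each library between the 2 ages on the log2(FPKM + 1) scale (0 is the mean of the other libraries of its age, 1 the mean of the other age). The genes are those above 0 in all 6 libraries whose remaining libraries differed by more than 1 (log2). Boxes are quartiles and whiskers the 5th and 95th percentiles over genes. The median of 12-week replicate 3 is 0.99, and that of the other 5 libraries lies between 0.005 and 0.44.

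The birds of 66 weeks, which took no part in choosing the 349 genes, were mostly on the side of 12-week replicates 1 and 2. On the same scale, with 0 at the mean of those 2 libraries and 1 at the 35-week mean, the median place in the 227 higher genes was 0.03, 0.09 and -0.06 for 66-week replicates 1, 2 and 3. In the 122 lower genes it was 0.31, 0.43 and 0.06. Past the halfway point towards 35 weeks were 46, 56 and 34 of the 227 higher genes, and 37, 50 and 19 of the 122 lower genes. The median level of the higher genes was 27.7, 31.2 and 30.9 FPKM in the 35-week libraries and 25.6 FPKM in 12-week replicate 3, against 11.3 and 10.7 FPKM in 12-week replicates 1 and 2. It was 11.1, 12.0 and 9.89 FPKM in the 66-week libraries. The median level of the lower genes was 19.9, 15.1 and 15 FPKM in the 35-week libraries and 15.6 FPKM in 12-week replicate 3, against 43.2 and 45.6 FPKM in the other 12-week libraries, and it was 31.1, 28.7 and 42.0 FPKM at 66 weeks. The genes were called on the 3 libraries of 35 weeks and on 12-week replicates 1 and 2, so the values of these 5 libraries follow from the choice. Those of 12-week replicate 3 restate the likeness for which it was set aside.

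**Figure D5:**
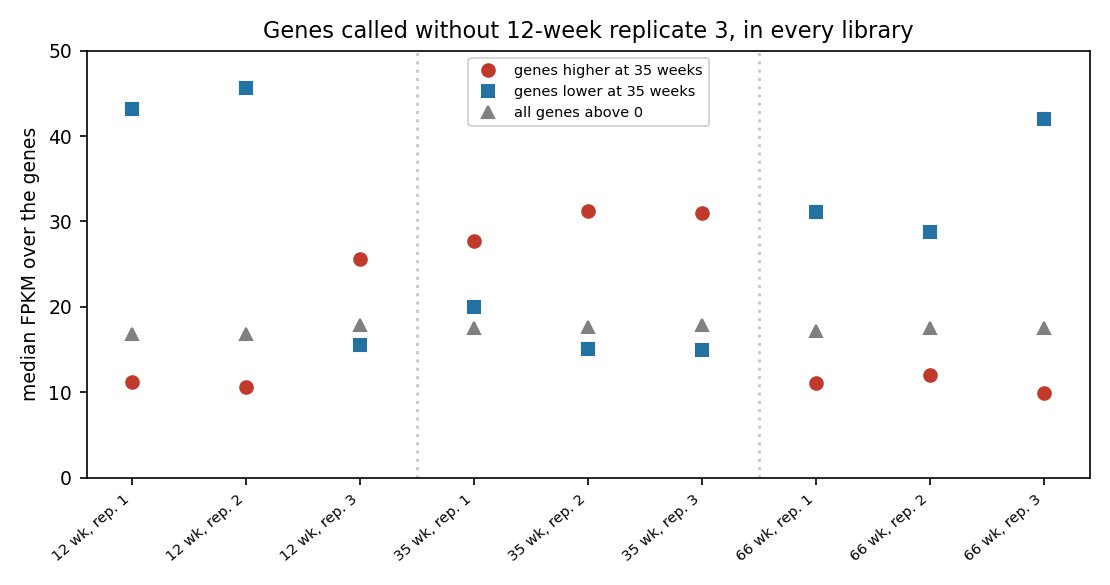
Median FPKM in each library over the 227 genes called higher (circles) and the 122 called lower (squares) at 35 weeks without 12-week replicate 3, and over all 10940 genes above 0 in the 6 libraries (triangles). In 12-week replicate 3 the medians are 25.6 and 15.6 FPKM, near those of the 35-week libraries and away from the 11.3 and 43.2 FPKM of 12-week replicate 1.

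Direction differed with level. Over all genes compared, 53.2% had a positive fold change, with a median log2 fold change of 0.023. Of the genes above 0 in all 6 libraries, 56.6% of the 3545 at 1 to 10 FPKM, 49.9% of the 6291 at 10 to 100 FPKM and 57.1% of the 964 at 100 to 1000 FPKM were higher in mean at 35 weeks. In the 140 genes at 1000 FPKM or more it was 80.7%, with a median log2 fold change of 0.27, and without 12-week replicate 3 these values were 77.1% and 0.29. Over all 164 genes of that class, zeros included, 75.6% were positive. With median-ratio scaling it was 71.3%, and with quantile normalization, which gives all libraries the same distribution, 51.2%. Median-ratio scaling left 53.5%, 45.1% and 52.0% of all genes positive in the 3 lower classes. In the 3 lower classes quantile normalization left 44.7%, 45.8% and 48.8% of all genes positive, so that the excess at 1 to 10 and at 100 to 1000 FPKM turned into a deficit. The median level over the 140 genes was 1938, 1797 and 2085 FPKM in the 35-week libraries, against 1624, 1686 and 1588 FPKM in the 12-week libraries. The groups did not overlap, with an exact permutation p of 0.1, two-sided, the smallest that 3 against 3 allows. The 12-week replicate 3 was here the lowest of its age. Summed FPKM per library came to 1716760, 1598680 and 1503060 in the older birds, against 1255230, 1467610 and 1214260 in the younger ones (exact permutation p 0.1, two-sided). Of 5 such library values compared, none had a Benjamini-Hochberg adjusted exact p below 0.167.

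Without 12-week replicate 3, each class held genes called higher. Genes called higher were 1.35% of those at 1 to 10 FPKM, 2.30% at 10 to 100, 3.01% at 100 to 1000 and 3.57% at 1000 FPKM or more, the last being 5 genes. Genes called lower were 0.846%, 1.18% and 1.87% in the first 3 classes, and 0 of the 140 in the highest class were called lower by that fit. Median-ratio scaling left 172 higher and 118 lower calls, and quantile normalization 159 and 118, so that 57.4% of calls were higher with quantile normalization and 65.0% without any scaling.

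The spread between birds was wider at 12 weeks, and that too went with replicate 3. Per gene, the SD of log2(FPKM + 1) had a median of 0.22 over the 3 libraries of 35 weeks and 0.28 over the 3 of 12 weeks. Over 12-week replicates 1 and 2 alone it was 0.16, and over pairs with replicate 3 it was 0.26 in both. Pairs of 35-week libraries had medians of 0.14, 0.21 and 0.18, for replicates 1 and 2, 1 and 3, and 2 and 3. In genes above 0 in all 6, 12-week replicate 3 was the bird farthest from the median of its age in 51.3%. At 35 weeks the farthest bird was replicate 3 in 45.3%, replicate 1 in 32.4% and replicate 2 in 22.2%. The spread at 35 weeks was widest at the ends of the range, with a median SD of 0.27 at 1 to 10 FPKM and 0.30 at 1000 FPKM or more, beside 0.18 at 10 to 100 FPKM. The 12-week medians at the same levels were 0.34, 0.31 and 0.23.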

How the data were processed

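The values are FPKM per gene in each library, as deposited by the authors and named per the file headers. The tools named per the submitters' processing notes are Cufflinks 2.1.1, Cuffdiff and TopHat2 2.0.9. Genome build and annotation, the role of each tool and any library scaling are not given in the labels. Nor do they say whether the gene models behind the ENSAPLG identifiers are those of this species. Any effect of that on levels and zeros was not tested. Depth in reads is not given, so no counting interval is given. Genes that averaged 1 FPKM or more in the 6 libraries were taken as log2(FPKM + 1), which understates the change of low genes. They were fitted with limma 3.58.1 (R 4.3.3; lmFit, and eBayes with an intensity trend), 35 minus 12 weeks, with 4 residual degrees of freedom (3 without 12-week replicate 3). Tests were two-sided, with Benjamini-Hochberg adjustment over all genes fitted and a threshold of 0.05. The fit was run on simulated data with noise independent between libraries and a spread taken without 12-week replicate 3. That simulation does not cover a library that stands apart from its age. Single library values were compared by exact permutation (scipy 1.17.1). The design text states 3 birds per age; p-values measure the spread between these libraries. No 2 libraries held identical values.

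Genes given by identifier are the 2 called genes with the largest fold change in each direction whose ages did not overlap; others are described by rank, without an identifier. The comparison, the genes and the alternatives were chosen with earlier results of these data known.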

Additional observations from a re-analysis of the deposited data

How the results depend on the processing

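Counts are genes past an adjusted p of 0.05 from limma, higher and lower at 35 weeks, and causes were not tested unless given. The 5 higher genes became 3 with a pseudocount of 0.01, 3 with a mean of at least 5 FPKM, 2 among genes above 0 (fewer genes), 2 with 9 libraries fitted and 15 with library weights (0.304 for 12-week replicate 3). The 3 lower became 1 with a mean of at least 5 FPKM and 0 with 9 libraries fitted. With the replicate block there were 2 and 1. Without 1 library at a time the range was 4 to 18 higher (10 without 12-week replicate 1 or 35-week replicate 2, 18 without 12-week replicate 3) and 2 to 9 lower. Without 12-week replicate 3, the 18 and 9 became 39 higher with a pseudocount of 0.01, and 10 and 4 with no filter. They became 227 and 122 among genes above 0, and 316 and 144 with 9 libraries fitted. With robust eBayes they were 80 and 40, with library weights 354 and 200, and with the replicate block 0 and 0. The block leaves few residual degrees of freedom in that fit. At an unadjusted limma p under 0.05, which unchanged genes can also pass, the fit without 12-week replicate 3 gave 1552 and 1039 of 11453 genes. A second library left out, of 35 weeks, gave 8 to 17 higher and 5 to 23 lower. Fitting 9 libraries on genes above 0, chosen after seeing the data as were all alternatives run on those genes, gave 469 and 243 without 12-week replicate 3. The deviations of same-numbered libraries correlated at 0.157, -0.0345 and 0.215, which does not decide whether the replicate numbers pair the libraries. Pairing was not tested.

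The share of genes with all 35-week libraries above all 12-week libraries was 9.31% with no filter, 9.05% with median-ratio scaling and 7.93% with quantile normalization, and that below was 5.98%, 8.34% and 9.78%, and 7.14% with a mean of at least 5 FPKM. Without 1 library they ranged from 12.7% to 24.9% above and from 8.80% to 18.0% below, where 5 libraries overlap less often by construction. The 8 called genes passed in 103 of 144 values and kept their sign in all 144; as their ages do not overlap, the choice of genes fixes the sign, which is no sign of stability.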

Other observations

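Some genes set 12-week replicate 3 apart from every other library of the series, the 35-week ones included. Of the 10940 genes above 0 in the 6 libraries, it was more than 2-fold above all 8 others in 78 and more than 2-fold below them in 85. The corresponding counts were 6 and 15 for 35-week replicate 1, 16 and 9 for replicate 2 and 32 and 55 for replicate 3 of that age. They were 11 and 44 for 12-week replicate 1 and 48 and 47 for 12-week replicate 2. Birds of 66 weeks had 13 and 54, 8 and 43, and 26 and 142, so the count below was highest in the last of these. Only a 66-week library could be at 0 in these genes, and a 0 can count as below. Its counts below are therefore not like those of the other ages. The gene with the widest such gap was at 84.9 FPKM in 12-week replicate 3. It was at 4.74, 5.75 and 4.54 FPKM in the 35-week libraries, against 2.42 and 2.75 FPKM in the other 12-week libraries. The third by gap was at 30.6 FPKM there, at 3.94, 3.48 and 3.39 FPKM in the 35-week libraries, against 4.58 and 2.28 FPKM in the other 12-week libraries. These genes were picked for their gap and are given as values only.

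Deviations of the birds from the mean of their own age were correlated across genes for the 9 pairs of a 35-week and a 12-week library, with r between -0.322 and 0.241. For 12-week replicates 1, 2 and 3, r was 0.157, 0.241 and -0.322 with 35-week replicate 1, -0.113, -0.0345 and 0.115 with replicate 2, and -0.0561, -0.206 and 0.215 with replicate 3. Deviations within an age sum to 0 in each gene, so these values are not independent of one another.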
